A study of Mus musculus with 8 samples.

Results

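The genes described here are those of the aminoacyl-tRNA synthetases, the enzymes that load amino acids onto transfer RNAs, and Atf4 with a set of its target genes. They were chosen by symbol from the protein-coding rows of the deposited table. The synthetases were all symbols made of 1 capital letter and ars, with or without a closing a, b, 1 or 2, together with Eprs, which gave 37 genes. The others were Atf4 itself and 12 genes known to respond to it, Atf5, Asns, Ddit3, Trib3, Chac1, Sesn2, Cebpb, Cebpg, Ppp1r15a, Nupr1, Vldlr and Aldh18a1, so that 50 of the 22075 genes of the table were followed. The annotation columns of the table describe 37 of the 37 synthetase rows as a tRNA synthetase or ligase. By their names, 20 act in the cytosol and 17, with a closing 2, in mitochondria.

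A synthetase joins 1 amino acid to its matching tRNA, and cells keep separate sets of these enzymes, encoded by different nuclear genes, for the cytosol and for mitochondria. A few genes, among them Gars and Kars, are known to supply both places. ATF4 is a transcription factor of the integrated stress response: when the initiation factor eIF2 is phosphorylated by one of several kinases, for example when amino acids run short, bulk translation drops while Atf4 mRNA is translated better. Its known targets include cytosolic synthetases, enzymes and transporters for amino acids, and feedback regulators of the response itself.

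Lung group 2 innate lymphoid cells (ILC2), which make type 2 cytokines such as IL-5 and IL-13 when the alarm cytokine IL-33 reaches them, were sequenced in 4 groups of 2 libraries. They were STAT3-KO cells with IL-33, WT cells with IL-33, STAT3-KO control cells and WT control cells. All came from C57BL/6 mice given papain, an allergenic protease, for a short time and were grown for about 5 days in IL-2 at 10 ng/ml. The treated cells then had IL-33 at 10 ng/ml for 2 more days. Per the labels' protocols, the STAT3-KO cells came from VavicreStat3fl/fl mice, whose Cre is driven by a promoter active throughout blood cells, and the WT cells from Stat3fl/fl mice, so both carried the floxed alleles. The animals' age and whether the 2 libraries of a group came from separate mice are not stated, so p-values measure the spread between these libraries, which may be technical.

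Values are FPKM, reads scaled to the length of a gene's merged exons and to the library's depth. Whole reads could be recovered from them: 93.4% to 94.6% of values of at most 100 reads per library lay within 0.02 of a whole number, which put the depth at 15843683 to 19905802 reads. For a 1 kb transcript, 3 reads come to 0.151 to 0.189 FPKM at that depth. Stat3 had 8.03 and 9.69 FPKM in STAT3-KO cells with IL-33, 49 and 55.3 FPKM in WT cells with IL-33, 15.3 and 16 FPKM in STAT3-KO control cells, and 41.7 and 50.7 FPKM in WT control cells, so the labels and the targeted gene go together. All 11 ILC2 markers were detected in all 8 libraries, with Gata3 between 171 and 516 FPKM, and their levels moved with the groups. By the test used below, 4 of the 11 rose and 7 fell with IL-33 in STAT3-KO cells, 4 rose and 3 fell in WT cells, and with IL-33 9 were lower in STAT3-KO than in WT cells (median log2 difference -1.48). In the difference of the IL-33 responses 9 of 11 were lower in STAT3-KO. Over all tested genes 20.4% rose and 30.6% fell with IL-33 in STAT3-KO cells, and 14.5% rose and 21.6% fell in WT cells. With IL-33, 16.4% of all tested genes were lower in STAT3-KO than in WT cells, and 8.43% were lower in the difference of responses. Summed markers of T cells came to 4.27 to 9.35 FPKM, of dendritic cells to 2.30 to 7.09 FPKM and of epithelial and stromal cells to 21.2 to 31.0 FPKM over the libraries, and those of B cells, NK cells and ILC1, ILC3, and macrophages and monocytes to at most 4.52 FPKM. Of 4 mast cell and basophil markers listed, the 2 that have a row moved with the groups. Cpa3, a mast cell protease, had 7.52 and 7.49 FPKM in STAT3-KO cells with IL-33, 34.6 and 41.8 FPKM in WT cells with IL-33, 111 and 140.4 FPKM in STAT3-KO control cells and 326 and 299 FPKM in WT control cells. Mcpt8, a basophil protease, had 0.246 and 0 FPKM in STAT3-KO cells with IL-33, 92.8 and 114 FPKM in WT cells with IL-33, 0 FPKM in both STAT3-KO control libraries and 0 and 0.126 FPKM in WT control cells. The part of all these markers, those of ILC2 included, in the results on the synthetases and ATF4 targets was not tested.

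ATF4 binds a composite site whose letters are TGATGNAA, or TTNCATCA on the other strand. RefSeq promoters of the GRCm38.p6 build, from 250 bases before to 50 after the start that RefSeq gives, were found for 40 of the 50 genes. The letters stand on either strand in 5 of 13 cytosolic synthetase genes, in 0 of 14 mitochondrial synthetase genes and in 5 of 13 genes of the ATF4 set, the fifth of these being Vldlr. They are in the promoters of 4.51% of all 27025 genes with a promoter of the same length, and of 2.71% of those among the genes tested. The RefSeq start can differ from the end of the gene in the deposited table, as in Aars and Nupr1, whose windows lie inside the deposited gene. A match is a description of letters, not a measured site. The stretches around them are printed 5′ to 3′ on the strand of the gene, with the motif in capitals, since several of the genes that follow carry it.
Asns (chr6:7693210-7693258, minus strand): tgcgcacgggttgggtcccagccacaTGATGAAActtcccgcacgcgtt
Chac1 (chr2:119351023-119351082, plus strand): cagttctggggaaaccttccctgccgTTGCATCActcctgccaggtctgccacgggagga
Nupr1 (chr7:126625547-126625606, minus strand): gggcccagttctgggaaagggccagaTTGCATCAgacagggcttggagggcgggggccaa
Trib3 (chr2:152344028-152344057, minus strand): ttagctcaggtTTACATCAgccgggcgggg
Aars (chr8:111033704-111033763, plus strand): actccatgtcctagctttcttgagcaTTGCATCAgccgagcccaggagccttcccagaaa
Aars, a second match (chr8:111033840-111033869, plus strand): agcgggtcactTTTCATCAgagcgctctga
Gars (chr6:55037945-55038000, plus strand): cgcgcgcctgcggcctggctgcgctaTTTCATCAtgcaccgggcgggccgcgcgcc
Iars (chr13:49682126-49682155, plus strand): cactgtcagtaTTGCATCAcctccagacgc
Tars (chr15:11399659-11399699, minus strand): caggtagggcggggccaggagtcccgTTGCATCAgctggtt
Yars (chr4:129189895-129189924, plus strand): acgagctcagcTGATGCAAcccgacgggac
Counted from the RefSeq start, the motif begins 23, 30 and 15 bases upstream in Asns, Gars and Tars, and 193, 110 and 112 bases upstream in Chac1, Nupr1 and Aars. In Trib3, Iars, Yars and the second match of Aars it begins just downstream of that start.

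IL-33 raised Atf4 together with several of its targets in both genotypes. Differences were tested with limma on log2(FPKM + 1) in 1 fit over all genes, and a gene is called at an adjusted p under 0.05 (Benjamini-Hochberg over the 11877 genes with at least 1 FPKM in at least 2 libraries). Of the 13 genes, 10 were tested. In STAT3-KO cells 5 rose and 2 fell with IL-33, where 51% of all tested genes were called, 20.4% higher and 30.6% lower. In WT cells 6 rose and 1 fell, where 36.1% of all tested genes were called, 14.5% higher and 21.6% lower. The median log2 difference of the 10 was 0.43 in STAT3-KO and 1.10 in WT, against -0.18 in STAT3-KO and -0.14 in WT over all tested genes. Of all genes called with IL-33, 40% were higher in STAT3-KO and 40.2% in WT, shares that became 47.2% in STAT3-KO and 51.1% in WT when libraries were rescaled by median of ratios, and 53% in STAT3-KO and 55% in WT when each library's trend with exon length was removed. Chac1 passed the filter on low values only through the WT IL-33 libraries and Nupr1 only through the 4 IL-33 libraries, so their differences are part of how they came to be tested. Fewer cells of a type and less RNA per cell cannot be told apart in these bulk libraries.

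**Figure D1:**
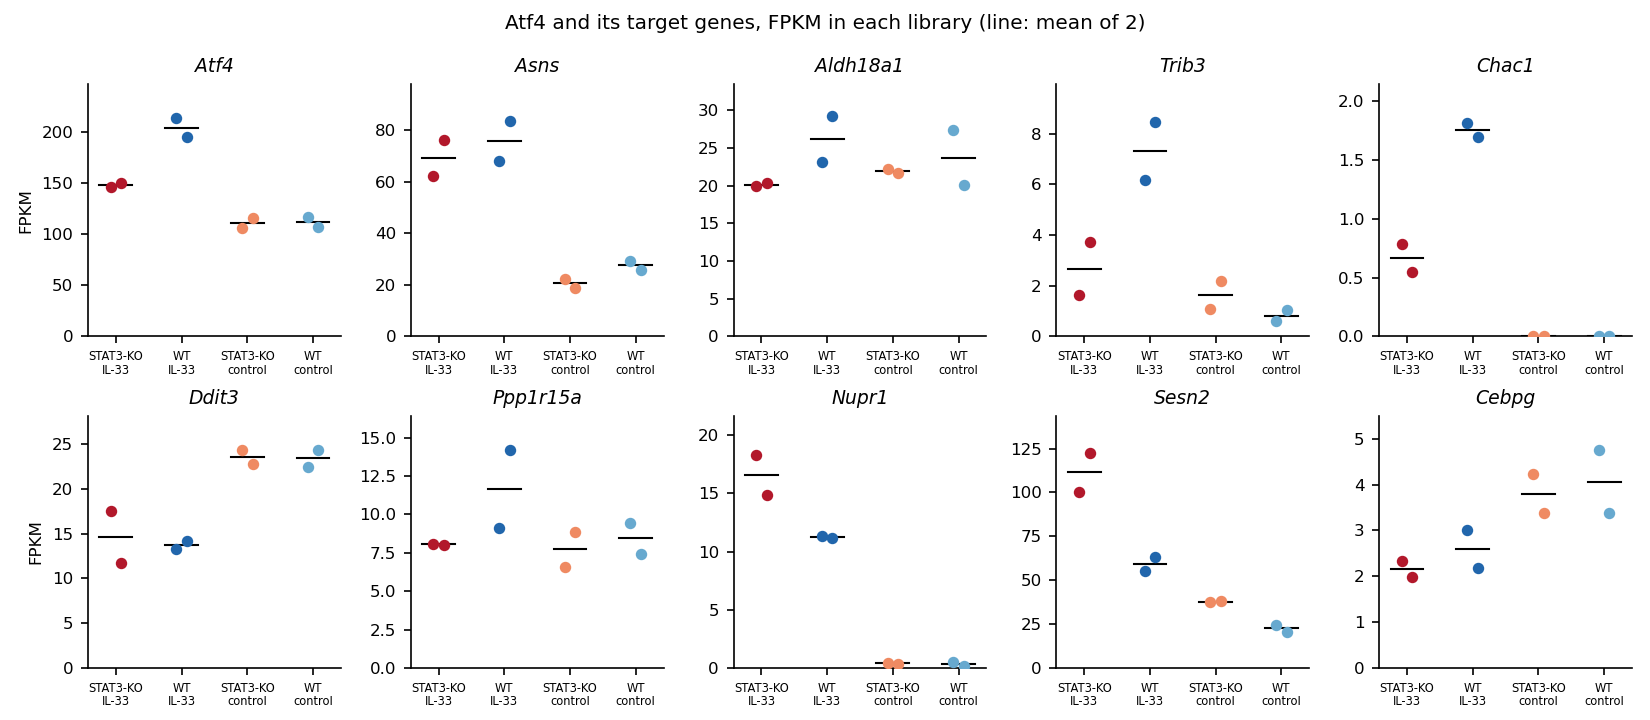
FPKM of Atf4 and the 9 other tested genes of the ATF4 set in each library, by group, with the mean of 2 libraries as a line. Atf4 and Trib3 stand highest in WT cells with IL-33 (213 and 194 FPKM for Atf4), whereas Sesn2 stands highest in STAT3-KO cells with IL-33 (100.3 and 123 FPKM).

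Atf4 (ENSMUSG00000042406, chr15:80255184-80257540 on GRCm38, plus strand) had 146 and 149 FPKM in STAT3-KO cells with IL-33, 213 and 194 FPKM in WT cells with IL-33, 106 and 116 FPKM in STAT3-KO control cells and 116 and 107 FPKM in WT control cells. The control groups overlap, and the IL-33 libraries of each genotype stand apart from their controls and from each other. IL-33 raised Atf4 by 0.41 ± 0.10 on the log2 scale in STAT3-KO cells (SE, adjusted p = 0.00873) and by 0.86 ± 0.10 in WT cells (adjusted p = 0.00035). The STAT3-KO call was lost without STAT3-KO control replicate 1, at 0.35. Set directly against WT with IL-33, STAT3-KO cells were lower by a log2 difference of -0.46 ± 0.10 (adjusted p = 0.00833), a call lost without WT IL-33 replicate 1, at -0.39. The difference between the genotypes' IL-33 responses, -0.45 ± 0.14, missed the threshold (adjusted p = 0.0605).

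Asns, which makes asparagine, had 62.2 and 76.2 FPKM in STAT3-KO cells with IL-33, 67.9 and 83.5 FPKM in WT cells with IL-33, 22.4 and 18.9 FPKM in STAT3-KO control cells and 29.3 and 25.7 FPKM in WT control cells. IL-33 raised it in both genotypes, by 1.70 ± 0.16 in STAT3-KO cells (adjusted p = 6.72e-05) and by 1.42 ± 0.16 in WT cells (adjusted p = 0.000279), and the IL-33 libraries of the genotypes overlap. Nupr1, a small nuclear protein induced by stress, had 18.3 and 14.8 FPKM in STAT3-KO cells with IL-33, 11.4 and 11.2 FPKM in WT cells with IL-33, 0.449 and 0.347 FPKM in STAT3-KO control cells and 0.522 and 0.176 FPKM in WT control cells. Its mean was 41.7-fold higher with IL-33 in STAT3-KO cells and 32.4-fold higher in WT cells, and both responses were called (adjusted p = 4.54e-06 in STAT3-KO and 1.54e-05 in WT). Its control values rest on 7 to 22 reads a library. Sesn2, a leucine-binding regulator of mTORC1 signalling, had 100.3 and 123 FPKM in STAT3-KO cells with IL-33, 55.2 and 62.9 FPKM in WT cells with IL-33, 37.4 and 38.1 FPKM in STAT3-KO control cells and 24.7 and 20.7 FPKM in WT control cells. IL-33 raised it by 1.53 ± 0.14 in STAT3-KO cells (adjusted p = 6.35e-05) and by 1.34 ± 0.14 in WT cells (adjusted p = 0.000205).

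Trib3 and Chac1, both known as late targets of the response, were higher with IL-33 in WT than in STAT3-KO cells. Trib3, a pseudokinase that restrains ATF4, had 1.65 and 3.71 FPKM in STAT3-KO cells with IL-33, 6.17 and 8.44 FPKM in WT cells with IL-33, 1.06 and 2.2 FPKM in STAT3-KO control cells and 0.589 and 1.04 FPKM in WT control cells. Only the WT IL-33 libraries stand apart from the other 6. The IL-33 response was 0.46 ± 0.33 in STAT3-KO cells (adjusted p = 0.279) and 2.19 ± 0.33 in WT cells (adjusted p = 0.00157). Chac1, which degrades glutathione, had 21 and 16 reads in STAT3-KO cells with IL-33 (0.787 and 0.55 FPKM), 59 and 45 reads in WT cells with IL-33 (1.81 and 1.69 FPKM) and 0 reads in each of the 4 control libraries. Against 3 reads per control library, its mean was at least 5.99-fold higher with IL-33 in STAT3-KO cells and at least 15.6-fold higher in WT cells. Both responses were called (adjusted p = 0.0184 in STAT3-KO and 0.00115 in WT), and the STAT3-KO call was lost without either STAT3-KO control library (0.73 each) or STAT3-KO IL-33 replicate 1 (0.63). With IL-33 the STAT3-KO libraries lay below the WT libraries for both genes, by -1.22 ± 0.33 for Trib3 (adjusted p = 0.0234) and -0.72 ± 0.21 for Chac1 (adjusted p = 0.0291). As Chac1 was tested only through its WT IL-33 libraries, its genotype difference is not independent of the filter. Without either of those libraries Chac1 falls under the filter, so its calls could not be checked there. The Trib3 call was lost without WT IL-33 replicate 1 (-1.42) or 2 (-1.02) or STAT3-KO IL-33 replicate 1 (-0.81), and that of Chac1 without STAT3-KO IL-33 replicate 1 (-0.83) or 2 (-0.62). With a pseudocount of 0.1 in place of 1 neither was called (-1.51 and -1.28), and without the filter on low values Trib3 was not.

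Of the other members tested, Ddit3 and Cebpg, both transcription factors, and Ppp1r15a and Aldh18a1 were not called higher with IL-33 in either genotype. Ddit3, the pro-apoptotic factor CHOP, fell with IL-33 to 17.5 and 11.7 FPKM in STAT3-KO cells, against 24.4 and 22.8 FPKM in STAT3-KO control cells, and to 13.3 and 14.2 FPKM in WT cells, against 22.4 and 24.4 FPKM in WT control cells. The log2 differences were -0.68 ± 0.18 in STAT3-KO (adjusted p = 0.0129) and -0.73 ± 0.18 in WT (adjusted p = 0.0137). The STAT3-KO call was lost without STAT3-KO control replicate 1 (-0.63) or STAT3-KO IL-33 replicate 2 (-0.41), and the WT call without WT control replicate 2 (-0.67) or WT IL-33 replicate 1 (-0.68) or 2 (-0.77). Cebpg, a dimer partner of ATF4, had 2.32 and 1.99 FPKM in STAT3-KO cells with IL-33, against 4.23 and 3.37 FPKM in STAT3-KO control cells (log2 difference -0.60 ± 0.22, adjusted p = 0.0488). That call was lost without any 1 of the STAT3-KO libraries or of the WT IL-33 libraries (-0.73 to -0.47), and with a pseudocount of 0.1 (-0.78), without the filter (-0.60), after rescaling (-0.51) or with the length trend removed (-0.31). In WT cells Cebpg had 3 and 2.18 FPKM with IL-33, against 4.75 and 3.38 FPKM without (adjusted p = 0.113). Ppp1r15a, the stress-induced subunit that directs eIF2 dephosphorylation, ranged from 6.6 to 14.2 FPKM over the 8 libraries, and Aldh18a1, which starts proline synthesis, from 20 to 29.2 FPKM, with no call in any of the 5 comparisons. Under the filter and so not tested was Atf5, a transcription factor, at 0.339 and 0.282 FPKM in STAT3-KO cells with IL-33, 0.454 and 0.586 FPKM in WT cells with IL-33, 0.119 and 0.156 FPKM in STAT3-KO control cells and 0.269 and 0.127 FPKM in WT control cells. So were Cebpb, at 0.0408 to 0.514 FPKM, and Vldlr, with 5 reads in WT IL-33 replicate 1 and 0 in the other 7 libraries. Both IL-33 libraries of Atf5 lay above both controls in each genotype.

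The synthetases did not respond as 1 block. With IL-33, 13 of the 37 rose and 2 fell in STAT3-KO cells, and 8 rose and 9 fell in WT cells, where 20.4% of all tested genes rose and 30.6% fell in STAT3-KO cells and 14.5% rose and 21.6% fell in WT cells. The 9 of 37 that fell in WT cells are thus close to the share of all genes. The cytosolic and mitochondrial sets gave different counts: of the 20 cytosolic genes 12 rose and 1 fell in STAT3-KO cells and 8 rose and 2 fell in WT cells, whereas of the 17 mitochondrial genes 1 rose and 1 fell in STAT3-KO cells and 0 rose and 7 fell in WT cells. Of the 8 enzymes of the cytosolic multisynthetase complex, 5 rose in STAT3-KO and 2 in WT cells. The median log2 difference of the cytosolic genes was 0.49 in STAT3-KO and 0.31 in WT, that of the mitochondrial genes 0.18 in STAT3-KO and -0.44 in WT, beside -0.18 in STAT3-KO and -0.14 in WT over all tested genes. The summed level of the cytosolic genes was 1029 ± 57.6 FPKM in STAT3-KO cells with IL-33, 890.7 ± 9.59 FPKM in WT cells with IL-33, 732 ± 9.43 FPKM in STAT3-KO control cells and 759.7 ± 8.48 FPKM in WT control cells (SD, n = 2 each). That of the mitochondrial genes was 98.1 ± 6.23 FPKM in STAT3-KO cells with IL-33, 65.8 ± 4.18 FPKM in WT cells with IL-33, 90.3 ± 0.51 FPKM in STAT3-KO control cells and 90.1 ± 2.77 FPKM in WT control cells. As shares of a library's whole FPKM, the cytosolic sums with IL-33 overlap between the genotypes. They were 0.267% and 0.307% in STAT3-KO and 0.262% and 0.269% in WT cells. The mitochondrial shares with IL-33 do not overlap, at 0.0253% and 0.0294% in STAT3-KO and 0.0187% and 0.0206% in WT cells. The counts depend on scaling. With the length trend removed, 21 synthetases rose in STAT3-KO and 17 in WT cells, and 5 fell in WT cells, while 6 mitochondrial genes rose in STAT3-KO cells and 1 rose and 4 fell in WT cells. Rescaling by median of ratios gave 15 synthetases that rose in WT cells, with 1 mitochondrial gene up and 5 down.

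**Figure D2:**
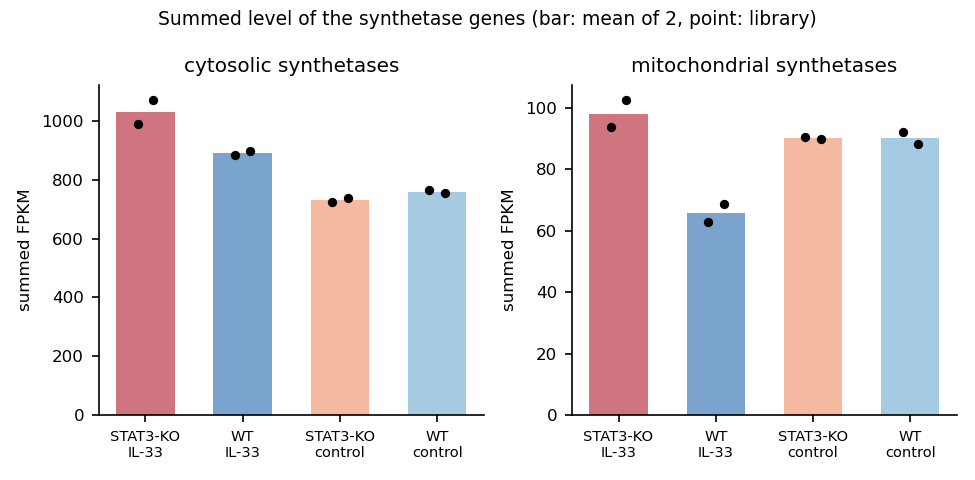
Summed FPKM of the 20 cytosolic and of the 17 mitochondrial synthetase genes, with a bar at the mean of each group and a point for each of its 2 libraries. The cytosolic sum is higher with IL-33 in both genotypes, whereas the mitochondrial sum is lowest in WT cells with IL-33, at 65.8 FPKM.

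By level, Kars, Rars and Nars were highest among the synthetases, with means over the 8 libraries of 98.5, 95.9 and 85.8 FPKM, for lysine, arginine and asparagine. Their ranges of 78.2 to 151, 70.1 to 154 and 73.5 to 105 FPKM overlap, so their order is not set beyond the spread. Nor does this order over all libraries hold in each group: Gars, at a mean of 88.6 FPKM, was above Nars, at 82.4 FPKM, in STAT3-KO cells with IL-33, and Vars, at 82.2 FPKM, was above Nars, at 77.0 FPKM, and Rars, at 74.5 FPKM, in WT control cells. Vars2, Yars2 and Iars2 were lowest over all libraries, at 1.18, 1.53 and 1.65 FPKM, although in WT control cells Mars2, at 1.20 FPKM, and Wars2, at 1.97 FPKM, were below Iars2, at 2.40 FPKM, and Yars2, at 2.44 FPKM. In WT cells with IL-33 Vars2, at 1.88 FPKM, was above Wars2 (1.22), Ears2 (1.58), Mars2 (1.62) and Aars2 (1.85). The library ranges of Vars2, Yars2 and Iars2, 0.562 to 2.32, 0.78 to 2.8 and 0.842 to 3.35 FPKM, overlap. The cytosolic genes ranged from 5.13 to 98.5 FPKM with a median of 39.2, and the mitochondrial genes from 1.18 to 13 FPKM with a median of 4.36.

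**Figure D3:**
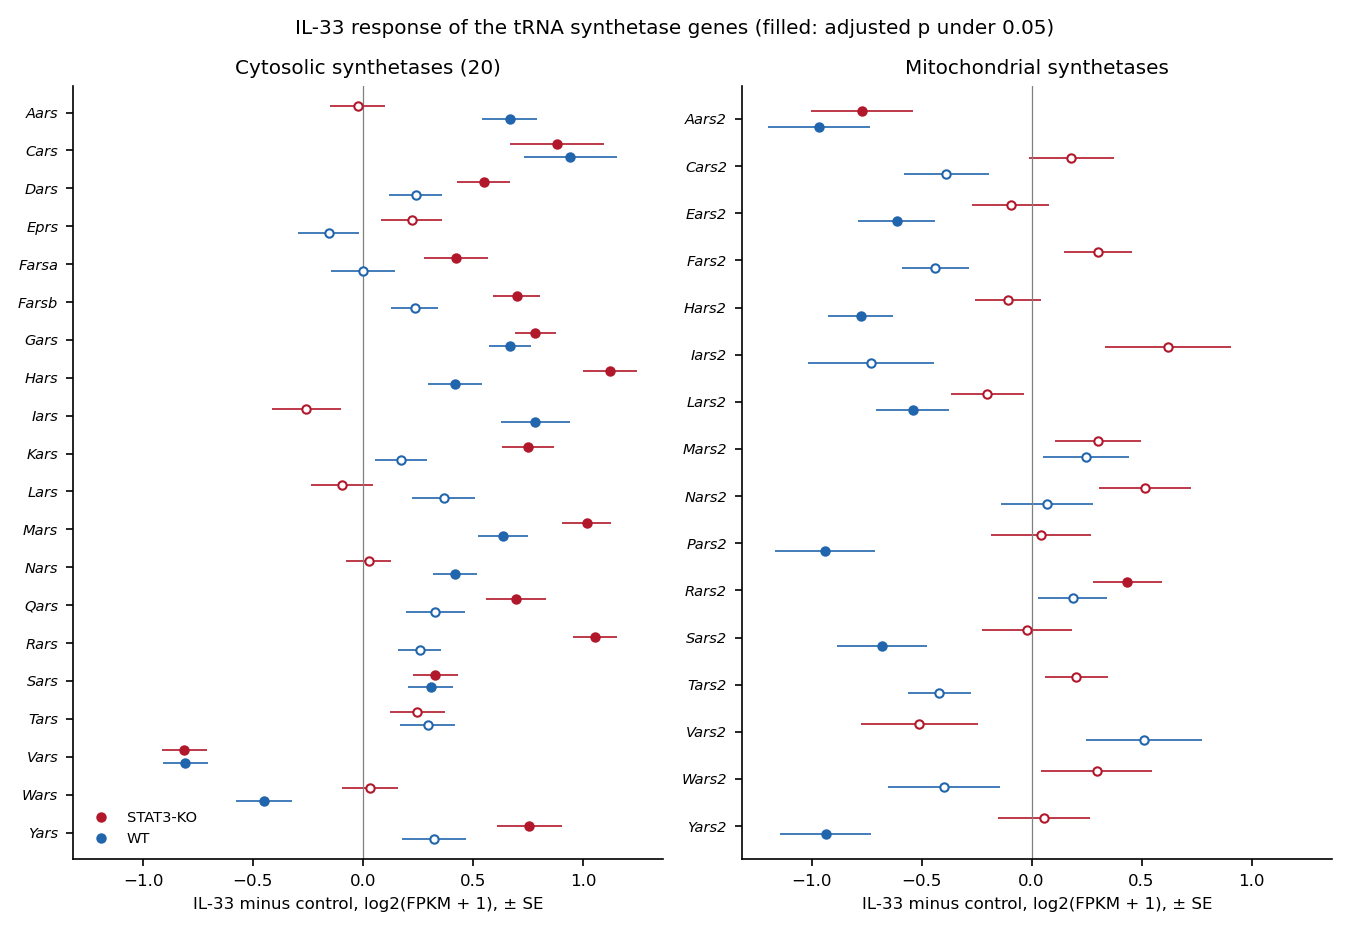
Log2 difference, IL-33 minus control, of the synthetase genes in STAT3-KO cells (upper, red) and WT cells (lower, blue), with the SE as a bar and filled points at an adjusted p under 0.05. Most cytosolic genes lie right of 0 in both genotypes, whereas in the mitochondrial panel most WT points lie left of 0.

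In STAT3-KO cells the 12 cytosolic genes that rose with IL-33 were Rars, Hars, Mars, Gars, Farsb, Kars, Yars, Qars, Dars, Cars, Sars and Farsa. Rars, for arginine, had 144 and 154 FPKM with IL-33, against 70.1 and 72.3 FPKM in STAT3-KO control cells (log2 difference 1.05 ± 0.10, adjusted p = 7.37e-05). Hars, for histidine, had 64 and 73 FPKM with IL-33 against 29.1 and 32.8 FPKM in control cells (1.12 ± 0.12, adjusted p = 0.000161). In both, the IL-33 libraries stand far above the control libraries. Mars, for methionine, had 43.4 and 48.1 FPKM with IL-33 against 21.8 and 22.3 FPKM in control cells (1.02 ± 0.11, adjusted p = 0.000176). Gars, for glycine, had 87.7 and 89.4 FPKM with IL-33 against 49.4 and 52.7 FPKM in control cells (0.78 ± 0.09, adjusted p = 0.00027). Farsb, 1 of the 2 subunits of the phenylalanine enzyme, had 77.5 and 75 FPKM with IL-33 against 48.4 and 44.9 FPKM in control cells (0.70 ± 0.11, adjusted p = 0.000954). Its partner subunit Farsa was called as well (0.42 ± 0.15, adjusted p = 0.0386), and the ratio of Farsb to Farsa was 1.58 and 1.75 in STAT3-KO cells with IL-33, 1.64 and 1.43 in WT cells with IL-33, 1.40 and 1.35 in STAT3-KO control cells and 1.21 and 1.39 in WT control cells. The remaining 6 had differences of 0.33 to 0.88. The call of Farsa (0.33 to 0.45) was lost without any 1 of the STAT3-KO control or WT IL-33 libraries, or without STAT3-KO IL-33 replicate 1. That of Sars (0.27 to 0.33) was lost without any 1 of the STAT3-KO control libraries or STAT3-KO IL-33 replicate 1. That of Cars was lost without STAT3-KO control replicate 1 (0.66) or STAT3-KO IL-33 replicate 2 (0.69). Farsa also lost its call without the filter or the variance trend (0.42 each), and Sars without the variance trend or with only the groups compared (0.33 each).

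In WT cells the cytosolic genes that rose with IL-33 were Gars, Mars, Aars, Iars, Cars, Hars, Nars and Sars. Gars had 81.5 and 81.2 FPKM with IL-33, against 51.6 and 50.1 FPKM in WT control cells (log2 difference 0.67 ± 0.09, adjusted p = 0.00104). Mars had 37.4 and 37.8 FPKM with IL-33 against 25 and 22.7 FPKM in control cells (0.64 ± 0.11, adjusted p = 0.0032). Aars, for alanine, had 37.8 and 42.5 FPKM with IL-33 against 22.9 and 27.1 FPKM in control cells (0.67 ± 0.13, adjusted p = 0.00447). Iars, for isoleucine, with 18.9 and 18.4 FPKM with IL-33 against 9.31 and 11.6 FPKM in control cells (0.78 ± 0.16, adjusted p = 0.00566), and Cars, for cysteine, with 7.46 and 8.13 FPKM with IL-33 against 3.39 and 3.77 FPKM in control cells (0.94 ± 0.21, adjusted p = 0.00956), were also above both control libraries. The other 3 had smaller differences of 0.31 to 0.42. Sars (0.27 to 0.34) lost its call without any 1 of the WT or STAT3-KO control libraries or of the WT IL-33 libraries. Hars (0.33 to 0.50) lost its call without any 1 of the 4 WT libraries, and Nars without WT control replicate 2 (0.35) or WT IL-33 replicate 1 (0.39). Cars lost its call without WT IL-33 replicate 2 (0.89). Without the variance trend Hars (0.42) and Sars (0.31) were not called, nor was Sars with a replicate block or with only the groups compared (0.31 each). Of the 5 cytosolic genes with the motif printed above, Gars and Yars rose in STAT3-KO cells, Aars, Gars and Iars rose in WT cells, and Tars was called in neither. Among cytosolic genes with a promoter and no motif, Dars, Farsa, Farsb, Kars, Mars, Qars and Sars rose in STAT3-KO cells, and Eprs did not. In WT cells Mars and Sars were the ones of these that rose. Whether the motif bears on the response was not tested.

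Vars, for valine, went the other way in both genotypes, to 38.7 and 40.1 FPKM with IL-33 in STAT3-KO cells, against 69.7 and 70.1 FPKM in STAT3-KO control cells, and to 44.6 and 48.5 FPKM in WT cells, against 78 and 86.4 FPKM in WT control cells. The log2 difference was -0.81 ± 0.10 in each (adjusted p = 0.000378 in STAT3-KO and 0.000644 in WT). Wars, for tryptophan, fell with IL-33 in WT cells to 32.7 and 35.4 FPKM, against 44.7 and 49.2 FPKM in WT control cells (-0.45 ± 0.13, adjusted p = 0.0242). Its call was lost without WT control replicate 2 (-0.38) or WT IL-33 replicate 1 (-0.40) or 2 (-0.51), after rescaling (-0.32), without the variance trend (-0.45) or with the length trend removed (-0.30).

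Aars, Iars and Nars, which rose in WT cells, were not called in STAT3-KO cells. Aars had 21.9 and 22.9 FPKM in STAT3-KO cells with IL-33, against 22.5 and 23.2 FPKM in STAT3-KO control cells (-0.02 ± 0.13). Iars had 8.47 and 9.01 FPKM with IL-33 against 9.68 and 11.7 FPKM in control cells (-0.26 ± 0.16), and Nars 78 and 86.7 FPKM with IL-33 against 80.6 and 81 FPKM in control cells (0.03 ± 0.10). The adjusted p values were 0.887, 0.199 and 0.853. The Aars value depends on exon length, which is 9282 bases for this gene: with each library's length trend removed it was 0.44 and called (adjusted p = 0.0115).

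**Figure D4:**
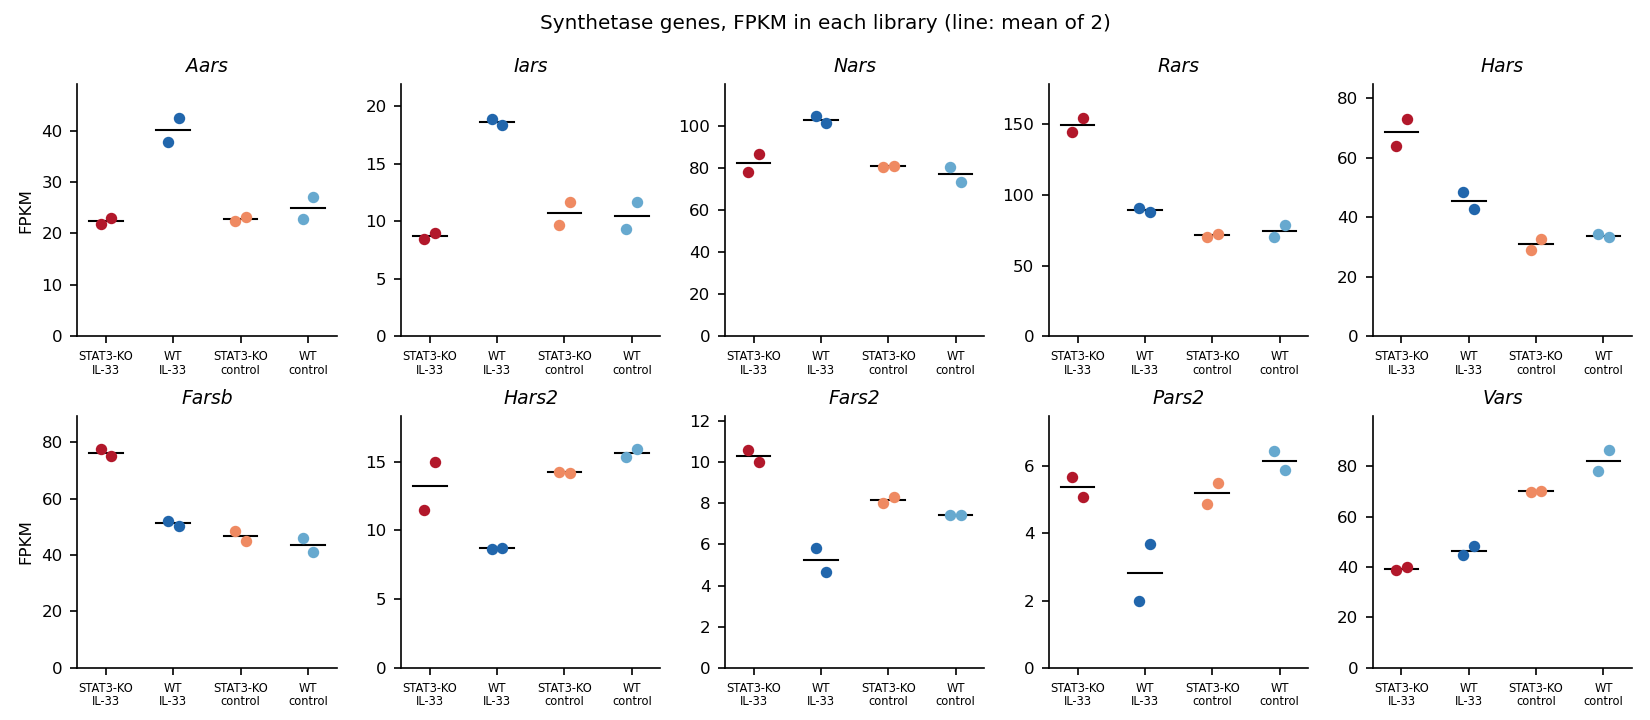
FPKM of 10 synthetase genes in each library, by group, with the mean of 2 libraries as a line. Aars, Iars and Nars stand highest in WT cells with IL-33, Rars, Hars and Farsb in STAT3-KO cells with IL-33, and Hars2, Fars2 and Pars2 are lowest in WT cells with IL-33.

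The mitochondrial enzymes charge the tRNAs that serve the few proteins made inside mitochondria. In STAT3-KO cells Rars2 rose with IL-33, to 13.7 and 15.6 FPKM against 10.1 and 11 FPKM in STAT3-KO control cells (0.44 ± 0.16, adjusted p = 0.046), a call lost without any 1 of the 4 STAT3-KO libraries (0.34 to 0.53). Aars2 fell with IL-33, to 3 and 3.48 FPKM with IL-33 against 5.68 and 6.81 FPKM in control cells (-0.77 ± 0.23, adjusted p = 0.0225), a call lost without STAT3-KO control replicate 2 (-0.66) or STAT3-KO IL-33 replicate 1 (-0.69) or 2 (-0.85). Without the filter neither Rars2 (0.44) nor Aars2 (-0.77) was called, nor with the length trend removed (0.39 and -0.57), and Rars2 was not called without the variance trend (0.44). The other 15 were not called.

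In WT cells Hars2, Yars2, Aars2, Pars2, Ears2, Sars2 and Lars2 fell with IL-33. Hars2 had 8.64 and 8.76 FPKM, against 15.3 and 15.9 FPKM in WT control cells (log2 difference -0.78 ± 0.15, adjusted p = 0.0048). Yars2, for tyrosine, had 0.798 and 0.78 FPKM with IL-33 against 2.8 and 2.08 FPKM in control cells (-0.94 ± 0.21, adjusted p = 0.00912). Aars2 had 2.46 and 1.25 FPKM with IL-33 against 4.49 and 4.41 FPKM in control cells (-0.97 ± 0.23, adjusted p = 0.0124). Pars2, for proline, had 1.98 and 3.67 FPKM with IL-33 against 6.43 and 5.9 FPKM in control cells (-0.94 ± 0.23, adjusted p = 0.0127). Ears2, for glutamate, had 1.56 and 1.6 FPKM with IL-33 against 2.75 and 3.15 FPKM in control cells (-0.61 ± 0.17, adjusted p = 0.0256). In these 5 genes both IL-33 libraries lay below both control libraries, which is not separate support, as the calls rest on the same libraries. Only the call of Hars2 held without each library in turn. Sars2 (-0.83 to -0.53) and Lars2 (-0.56 to -0.52) lost theirs without any 1 of the 4 WT libraries. Ears2 lost its call without WT control replicate 2 (-0.54) or WT IL-33 replicate 1 (-0.60) or 2 (-0.62), and Pars2 without WT control replicate 1 (-0.89) or WT IL-33 replicate 1 (-0.62). Yars2 (-0.93) and Aars2 (-0.65) lost theirs without WT IL-33 replicate 2. Without the filter the calls of Sars2 (-0.68) and Lars2 (-0.54) were lost, and after rescaling those of Sars2 (-0.58) and Lars2 (-0.43). Lost with the length trend removed were those of Sars2 (-0.53), Lars2 (-0.34) and Ears2 (-0.44), and with only the groups compared those of Lars2 (-0.54) and Ears2 (-0.61). The count of 0 that rose in WT cells is by limma, with 1 gene at an unadjusted p under 0.05.

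For 14 amino acids the cytosolic and the mitochondrial enzyme each have 1 gene among the 37, which allows the pairs to be set side by side. The IL-33 difference was greater for the cytosolic than for the mitochondrial gene in 10 of 14 pairs in STAT3-KO cells and in 11 of 14 in WT cells. It is on the log2(FPKM + 1) scale, which understates changes of the lower mitochondrial genes. The FPKM ratio was higher with IL-33, without overlap of libraries, in 7 pairs in STAT3-KO cells (3 lower, 4 overlapping). In WT cells it was higher in 9 pairs (2 lower, 3 overlapping). Between the genotypes it was lower in STAT3-KO in 10 pairs with IL-33 (2 higher, 2 overlapping). Without IL-33 it was lower in STAT3-KO in 4 pairs (3 higher, 7 overlapping). No share over other gene pairs stands beside these counts, so they are a description only. The ratio of Hars to Hars2 was 5.57 and 4.86 in STAT3-KO cells with IL-33, 5.59 and 4.89 in WT cells with IL-33, 2.04 and 2.31 in STAT3-KO control cells and 2.23 and 2.09 in WT control cells, so it was higher with IL-33 in both genotypes, and its IL-33 libraries overlap between them. The ratio of Iars to Iars2 was lower in STAT3-KO than in WT libraries with IL-33, at 4.35 and 3.77 in STAT3-KO cells with IL-33, 22.5 and 16.7 in WT cells with IL-33, 10.7 and 9.57 in STAT3-KO control cells and 2.78 and 8.03 in WT control cells. The ratio of Vars to Vars2 was lower with IL-33 in WT cells, at 30.9 and 20.9 with IL-33 and 112 and 63.9 in WT control cells. Vars2 and Iars2 lie near 1 FPKM, and no test was made of the ratios. Hars and Hars2 overlap by 198 bases on opposite strands, as do Ddit3 and Mars by 68 bases. In all, 17 of the 50 genes overlap another row on the opposite strand, and as no source used here says that reads were counted by strand, reads in such stretches cannot be assigned to 1 gene.

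Without IL-33 none of these genes was called between the genotypes. Of 47 tested members 0 were called higher and 0 lower in STAT3-KO control cells by limma, where 0.463% of all tested genes were called. At an unadjusted p under 0.05, 1 was higher (Sesn2, log2 difference 0.71 ± 0.14, adjusted p = 0.0861) and 4 were lower, Asns, Iars2, Wars and Yars2.

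With IL-33 the genotypes differed in 21 of the 47. Of the 37 synthetases, 13 were higher and 4 lower in STAT3-KO cells, where 32.6% of all tested genes were called, 16.3% higher and 16.4% lower. Among the cytosolic genes 6 were higher and 3 lower, with a median log2 difference of 0.17, and among the mitochondrial genes 7 were higher and 1 lower, with a median of 0.54, beside 0.01 over all tested genes. Of the 10 tested genes of the ATF4 set, Sesn2 was higher, Atf4, Trib3 and Chac1 were lower, and the median was -0.27. Chac1 passed the filter only through the WT IL-33 libraries, so its lower value in STAT3-KO cells is part of how it came to be tested.

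**Figure D5:**
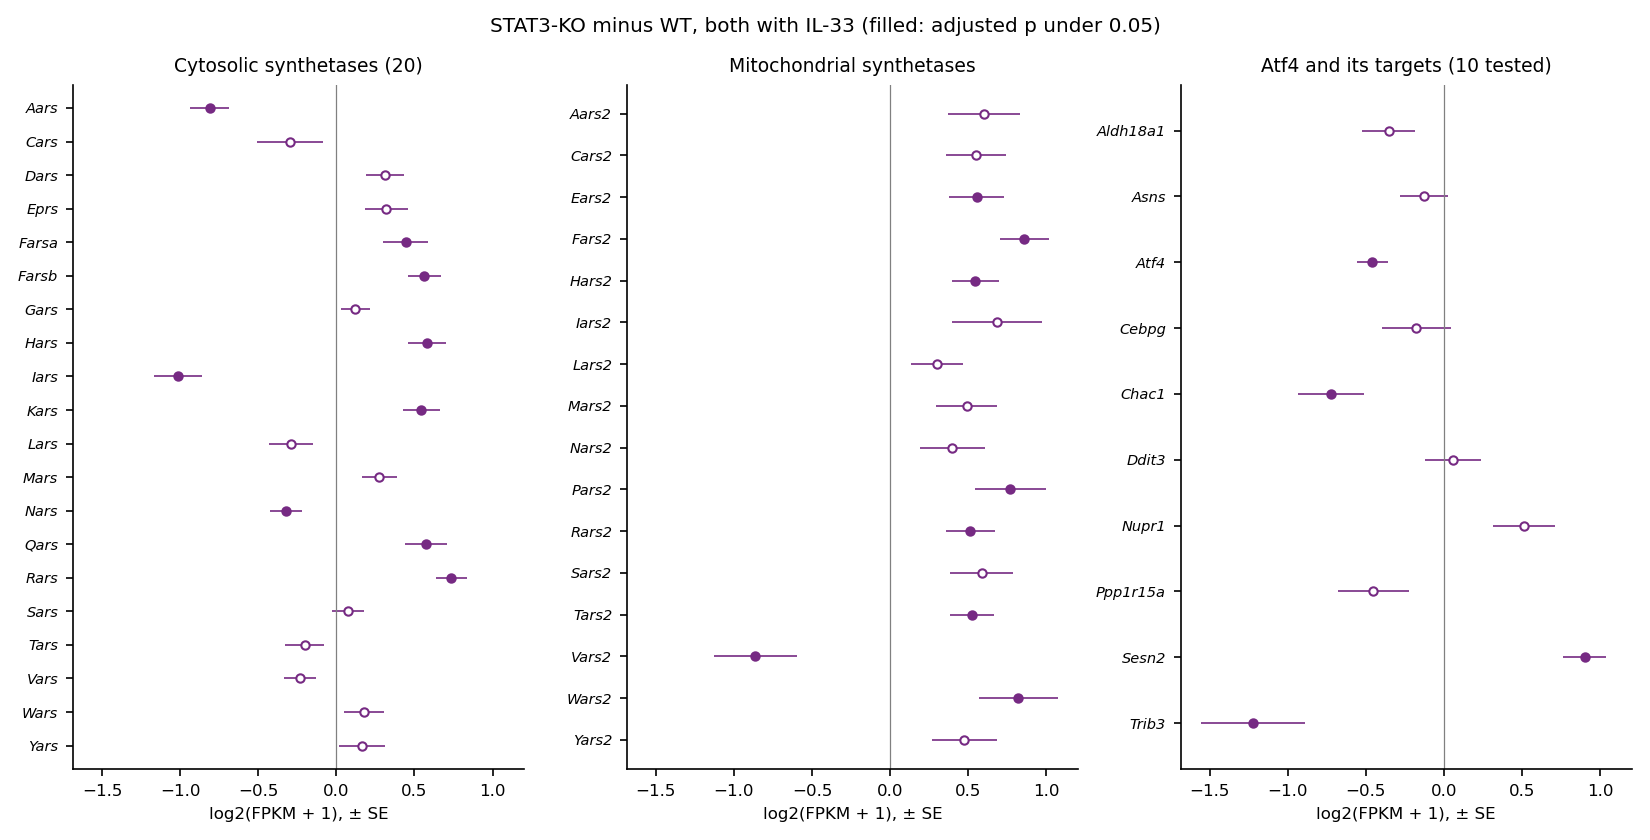
Log2 difference, STAT3-KO minus WT with IL-33 in both, for the cytosolic synthetases, the mitochondrial synthetases and the tested genes of the ATF4 set, with the SE as a bar and filled points at an adjusted p under 0.05. In the mitochondrial panel most genes lie right of 0 and Vars2 lies left of it, whereas the cytosolic panel spreads to both sides, from Iars at -1.01 to Rars at 0.73.

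The cytosolic genes higher in STAT3-KO cells with IL-33 were led by Rars, at 144 and 154 FPKM, against 90.5 and 87.6 FPKM in WT cells with IL-33 (log2 difference 0.73 ± 0.10, adjusted p = 0.001). Farsb had 77.5 and 75 FPKM in STAT3-KO cells, against 52.2 and 50.4 FPKM in WT cells (0.56 ± 0.11, adjusted p = 0.00478), and Farsa 49 and 42.9 FPKM in STAT3-KO against 31.8 and 35.2 FPKM in WT cells (0.44 ± 0.15, adjusted p = 0.0469). Hars had 64 and 73 FPKM in STAT3-KO against 48.3 and 42.8 FPKM in WT cells (0.58 ± 0.12, adjusted p = 0.00785). Kars, at 123 and 151 FPKM in STAT3-KO against 91 and 95.7 FPKM in WT cells (0.54 ± 0.12, adjusted p = 0.00925), and Qars, for glutamine, at 21.4 and 21.8 FPKM in STAT3-KO against 13.6 and 14.8 FPKM in WT cells (0.57 ± 0.14, adjusted p = 0.0131), are, with Rars, enzymes of the cytosolic multisynthetase complex, of whose 8 enzymes 3 were higher, 1 was lower (Iars) and 4 were not called. The call of Farsa (0.35 to 0.54) was lost without any 1 of the 4 IL-33 libraries or of the STAT3-KO control libraries. That of Hars was lost without WT IL-33 replicate 2 (0.49), and those of Kars (0.51) and Qars (0.52) without WT IL-33 replicate 1. Farsa was not called without the filter (0.44), after rescaling (0.43) or without the variance trend (0.44).

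Lower in STAT3-KO cells with IL-33 were Iars, Aars and Nars. Iars had 8.47 and 9.01 FPKM in STAT3-KO cells, against 18.9 and 18.4 FPKM in WT cells (log2 difference -1.01 ± 0.16, adjusted p = 0.00183). Aars had 21.9 and 22.9 FPKM in STAT3-KO against 37.8 and 42.5 FPKM in WT cells (-0.81 ± 0.13, adjusted p = 0.00193). Nars had 78 and 86.7 FPKM in STAT3-KO against 105 and 101 FPKM in WT cells (-0.32 ± 0.10, adjusted p = 0.0387), a call lost without either STAT3-KO control library (-0.32 each), WT IL-33 replicate 1 (-0.30) or 2 (-0.35) or STAT3-KO IL-33 replicate 1 (-0.25), and also without the filter, without the variance trend or with only the groups compared (-0.32 each). Iars and Aars kept their calls without each library in turn.

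Of the mitochondrial genes, Fars2, Tars2, Hars2, Pars2, Rars2, Wars2 and Ears2 were higher in STAT3-KO cells with IL-33. Fars2 had 10.6 and 10 FPKM in STAT3-KO cells, against 5.85 and 4.65 FPKM in WT cells (log2 difference 0.86 ± 0.15, adjusted p = 0.00367), and its call held without each library in turn. Tars2, for threonine, had 13.6 and 15.5 FPKM in STAT3-KO against 9.78 and 9.83 FPKM in WT cells (0.52 ± 0.14, adjusted p = 0.0237). Hars2 had 11.5 and 15 FPKM in STAT3-KO against 8.64 and 8.76 FPKM in WT cells (0.54 ± 0.15, adjusted p = 0.0241). Pars2 had 5.67 and 5.07 FPKM in STAT3-KO against 1.98 and 3.67 FPKM in WT cells (0.77 ± 0.23, adjusted p = 0.0308). Rars2 had 13.7 and 15.6 FPKM in STAT3-KO against 8.92 and 11.1 FPKM in WT cells (0.51 ± 0.16, adjusted p = 0.0366). Wars2 had 2.64 and 3.15 FPKM in STAT3-KO against 1.53 and 0.92 FPKM in WT cells (0.82 ± 0.25, adjusted p = 0.0375). Ears2 had 2.8 and 2.77 FPKM in STAT3-KO against 1.56 and 1.6 FPKM in WT cells (0.55 ± 0.17, adjusted p = 0.0408). For these 7 both STAT3-KO libraries lay above both WT libraries, but they were named because they were called on these libraries, so this is not separate support. Vars2 went the other way, at 0.562 and 0.567 FPKM in STAT3-KO against 1.44 and 2.32 FPKM in WT cells (-0.86 ± 0.27, adjusted p = 0.0366). Rars2 (0.37 to 0.65), Wars2 (0.62 to 1.02) and Ears2 (0.54 to 0.56) lost their calls without any 1 of the IL-33 libraries or of the STAT3-KO control libraries, and Vars2 (-1.08 to -0.64) without any 1 of the IL-33 libraries. Tars2 and Hars2 lost theirs without WT IL-33 replicate 1 (0.52 and 0.54) or 2 (0.53 and 0.55) or STAT3-KO IL-33 replicate 2 (0.43 and 0.37), and Pars2 without WT IL-33 replicate 1 (0.45) or either STAT3-KO IL-33 library (0.70 and 0.84). Without the filter on low values 5 of these 8 were not called, Rars2 (0.51), Wars2 (0.82), Ears2 (0.55), Pars2 (0.77) and Vars2 (-0.86). With the length trend removed Pars2 (0.64) and Rars2 (0.37) were not called. With only the groups compared Rars2 (0.51) and Ears2 (0.55) were not, nor was Ears2 with a replicate block (0.55).

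Sesn2 was the member of the ATF4 set that was higher in STAT3-KO cells with IL-33 (log2 difference 0.90 ± 0.14, adjusted p = 0.00184), and no library's removal ended that call. Without IL-33 its genotype difference was 0.71 ± 0.14 and not called (adjusted p = 0.0861). Its IL-33 responses differed between the genotypes by 0.19 ± 0.20 (adjusted p = 0.561). Asns (-0.13 ± 0.16, adjusted p = 0.579) and Ddit3 (0.06 ± 0.18, adjusted p = 0.835) overlapped between the genotypes with IL-33. Nupr1 was above WT in both STAT3-KO libraries and was not called (0.51 ± 0.20, adjusted p = 0.083).

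Whether the IL-33 response itself differed between the genotypes was tested as the response in STAT3-KO minus that in WT. Of the 47 tested members, 2 were called higher and 3 lower, where 6.72% of all tested genes were higher and 8.43% lower. Rars (ENSMUSG00000018848, chr11:35808381-35834506, minus strand) differed by 0.80 ± 0.14 (adjusted p = 0.00874), with responses of 1.05 in STAT3-KO and 0.26 in WT, and was called without each library in turn. Hars (ENSMUSG00000001380, on chromosome 18) differed by 0.70 ± 0.17 (adjusted p = 0.029), with responses of 1.12 in STAT3-KO and 0.42 in WT. Iars (ENSMUSG00000037851, chr13:49682100-49734267, plus strand) differed by -1.04 ± 0.22 (adjusted p = 0.0172), with responses of -0.26 in STAT3-KO and 0.78 in WT. Aars (ENSMUSG00000031960, chr8:111033144-111057664, plus strand) differed by -0.69 ± 0.18 (adjusted p = 0.035), and Trib3 (ENSMUSG00000032715, chr2:152337422-152344032, minus strand) by -1.73 ± 0.47 (adjusted p = 0.0425). The call of Hars (0.61 to 0.79) was lost without any 1 library but WT control replicate 2 and STAT3-KO IL-33 replicate 1. That of Aars (-0.77 to -0.57) was lost without any 1 but WT control replicate 2, and that of Iars without STAT3-KO control replicate 2 (-0.92) or WT IL-33 replicate 1 (-1.02) or 2 (-1.06). That of Trib3 (-1.93 to -1.32) was lost without WT control replicate 1, STAT3-KO control replicate 2, any 1 of the WT IL-33 libraries, or STAT3-KO IL-33 replicate 1. Without the filter or the variance trend Aars (-0.69), Hars (0.70) and Trib3 (-1.73) were not called, with the length trend removed Aars (-0.39) and Hars (0.53) were not, and with a pseudocount of 0.1 Trib3 (-2.39) was not.

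The mitochondrial set had 0 members called in this comparison by limma, and 7 higher and 1 lower at an unadjusted p under 0.05. Under other settings some were called: Fars2 (0.87), Iars2 (1.65) and Tars2 (0.84) with the length trend removed, Fars2 with a filter of 5 FPKM (0.74) and Yars2 without the variance trend (0.99). Leaving out 1 library brought in Hars2 without STAT3-KO IL-33 replicate 1 (0.85), Pars2 without WT IL-33 replicate 2 (1.31), and Iars2 (1.76) and Yars2 (1.14) without WT control replicate 2. Its median difference of responses was 0.57, with 15 of 17 genes above 0, beside -0.02 over all tested genes, of which 48.8% lay above 0. The comparisons within IL-33, within genotype and of the responses share libraries and do not support each other independently.

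Related genes outside the 50 were counted the same way. Of all tested genes 20.4% rose and 30.6% fell with IL-33 in STAT3-KO cells, and 14.5% rose and 21.6% fell in WT cells. The 3 scaffold genes of the multisynthetase complex went with the cytosolic enzymes: in STAT3-KO cells Aimp2 (0.94 ± 0.17), Eef1e1 (1.10 ± 0.24) and Aimp1 (0.62 ± 0.17) all rose with IL-33, and in WT cells 1 of 3 did, Eef1e1 (0.80 ± 0.24). The call of Aimp1 was lost without STAT3-KO control replicate 2 (0.55) or STAT3-KO IL-33 replicate 1 (0.48), and that of Eef1e1 in WT (0.67 to 0.93) without any 1 of the 4 WT libraries. Of 9 other genes of tRNA charging, 7 were tested. With IL-33 none of them rose, while Pstk, a kinase of selenocysteine synthesis, fell in both genotypes (-0.66 ± 0.17 in STAT3-KO and -0.98 ± 0.17 in WT) and Gatc, a subunit of the mitochondrial glutamine amidotransferase, fell in WT cells (-1.13 ± 0.23). With only 7 genes, these counts cannot be told from the shares over all tested genes. The STAT3-KO call of Pstk was lost without STAT3-KO control replicate 2 (-0.63).

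Among genes of the eIF2 pathway, 5 rose and 2 fell with IL-33 in STAT3-KO cells and 2 rose and 3 fell in WT cells, of 15 tested. In WT cells that is near the 14.5% of all tested genes that rose and the 21.6% that fell, and in STAT3-KO cells the shares over all tested genes were 20.4% and 30.6%. The eIF2 subunits Eif2s2 and Eif2s1 rose in both, Eif2s2 to 39.9 and 38.7 FPKM in STAT3-KO cells, against 14.3 and 16.1 FPKM in STAT3-KO control cells, and to 51.6 and 46.4 FPKM in WT cells, against 15.2 and 16.9 FPKM in WT control cells. The kinase Eif2ak1 fell in both (-0.60 ± 0.14 in STAT3-KO and -0.54 ± 0.14 in WT), a WT call lost without any 1 of the 4 WT libraries (-0.58 to -0.49). Ppp1r15b, the constitutive counterpart of Ppp1r15a, had 5.58 and 6.24 FPKM in STAT3-KO cells with IL-33, 20.3 and 18.4 FPKM in WT cells with IL-33, 12.6 and 14.2 FPKM in STAT3-KO control cells and 12.2 and 21.8 FPKM in WT control cells. It fell with IL-33 in STAT3-KO cells (-1.06 ± 0.24, adjusted p = 0.00612) and was not called in WT cells (0.23 ± 0.24, adjusted p = 0.472).

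Of 27 further ATF4 target genes 26 have a row and 20 were tested, and with IL-33 9 rose and 4 fell in STAT3-KO cells and 9 rose and 2 fell in WT cells. Of all tested genes 20.4% rose and 30.6% fell in STAT3-KO cells, and 14.5% rose and 21.6% fell in WT cells. Psat1, of serine synthesis, rose by 1.51 ± 0.13 in STAT3-KO and 0.99 ± 0.13 in WT, and Phgdh, the first enzyme of that path, by 0.67 ± 0.10 in STAT3-KO and 0.96 ± 0.10 in WT. Psph, the last enzyme of the same path, fell in STAT3-KO cells (-0.52 ± 0.15, adjusted p = 0.0215) and was not called in WT cells (0.16 ± 0.15, adjusted p = 0.428). The STAT3-KO call was lost without STAT3-KO control replicate 1 (-0.42) or STAT3-KO IL-33 replicate 1 (-0.53) or 2 (-0.51). The alanine transaminase Gpt2 rose by 2.44 ± 0.23 in STAT3-KO and 2.50 ± 0.23 in WT, and the branched-chain transaminase Bcat1 by 1.64 ± 0.20 in STAT3-KO and 1.85 ± 0.20 in WT, both at most 1.27 FPKM in every control library. Slc38a2, which imports neutral amino acids, had 2.78 and 3.97 FPKM in STAT3-KO cells with IL-33, 16.3 and 16.3 FPKM in WT cells with IL-33, 14.5 and 14.9 FPKM in STAT3-KO control cells and 13 and 19 FPKM in WT control cells. Only the STAT3-KO IL-33 libraries stand apart, and its response was -1.86 ± 0.20 in STAT3-KO (adjusted p = 0.000161) and 0.05 ± 0.20 in WT (adjusted p = 0.854). Atf3, an immediate-early factor of the same family, was at 92.7 and 85.2 FPKM in STAT3-KO cells with IL-33, 18.3 and 25 FPKM in WT cells with IL-33, 0.0828 and 0.318 FPKM in STAT3-KO control cells and 0 and 0.967 FPKM in WT control cells. Its libraries with IL-33 stand apart by genotype, with STAT3-KO above WT (2.01 ± 0.30, adjusted p = 0.00169). Atf3 passed the filter on low values only through its IL-33 libraries, so its rise with IL-33 is part of how it came to be tested.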

How the data were processed

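RNA of 8 libraries, 2 in each of 4 groups, was measured by RNA-seq. The authors deposited 1 table of FPKM per gene, made with Bowtie2 and RSEM on GRCm38 per the submitters' processing notes, with no versions; the deposited FPKM values were used without rescaling. As FPKM is not a count, limma 3.58.1 in R 4.3.3 was fitted to log2(FPKM + 1) with 1 mean per group over all 8 libraries and a trended eBayes step, for genes of at least 1 FPKM in at least 2 libraries (11877), with p adjusted over all of them at 0.05. Fold changes on this scale understate the change of low genes. Whole reads came from the FPKM and the merged exon lengths of the GRCm38 annotation (22041 of 22075 genes matched). Promoters, from RefSeq on GRCm38.p6, were searched on both strands.

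The members and lists were chosen with earlier results of these data known. Named were the 13 genes of the ATF4 set, per synthetase set and comparison the 5 called members of smallest p in each direction, all members called in the STAT3-KO and response comparisons, the 3 highest and 3 lowest synthetases by level, and up to 4 called genes per further list and comparison. The mitochondrial set totals include 1 gene that is not reported here by itself. Genes of those lists beyond this rule were chosen after their values were seen. The replicate numbers of the labels do not pair the libraries (correlation of same-numbered deviations -0.062 to 0.045). Libraries of a group correlated at 0.971 to 0.983 over the tested genes. Alternatives were another pseudocount, filter, scaling, block, variance trend and sample set, leaving out each library, and, chosen after seeing the data, removal of each library's lowess trend with exon length.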

Additional observations from a re-analysis of the deposited data

Results flagged for a closer look

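The IL-33 response differed between the genotypes, by the test of the difference of responses, in 5 of the 47 genes tested, and in 4 genes of the related lists. As 15.1% of all tested genes were called in this comparison, the count of 5 is not above the background. Rars (0.8) and Hars (0.7) had the larger log2 response in STAT3-KO cells, and Iars (-1.04), Aars (-0.69) and Trib3 (-1.73) the larger one in WT cells. Of the related genes, Atf3 differed by 2.24 (adjusted p = 0.0124; 2.02 and not called without WT IL-33 replicate 1) and the eIF2B subunit Eif2b5 by 1.3 (adjusted p = 0.0451), both larger in STAT3-KO cells. Slc38a2 differed by -1.91 (adjusted p = 0.00477) and Ppp1r15b by -1.29 (adjusted p = 0.0348). Atf3 passed the filter on low values only through its IL-33 libraries, so its difference is not independent of the filter. Eif2b5 (1.00 to 1.42) lost its call without any 1 of WT control replicate 1, WT IL-33 replicate 2, the STAT3-KO control or the STAT3-KO IL-33 libraries, and Ppp1r15b (-1.37 to -1.21) without any 1 library other than the WT control ones. The basophil protease Mcpt8 moved with the groups in another way, near 0 FPKM in all but the WT IL-33 libraries, and its part in these differences was not tested.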

How the results depend on the processing

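There were 72 calls of members and 16 alternatives, and a call was followed only under the alternatives in which its gene was tested. Of the 72 calls, 72 kept their direction under every such alternative. There were 49 called under every such one that uses all libraries, and 32 under all such. Chac1, for example, was not tested at a filter of 5 FPKM or without either WT IL-33 library. For values not called at first, only a change of sign that became a call was counted. Aars in STAT3-KO cells with IL-33 was the 1 such value, from -0.02 to 0.44 with the length trend removed. That alternative gave 21 synthetases higher with IL-33 in STAT3-KO and 17 in WT, 1 and 5 lower, and 6 higher and 1 lower in the difference of responses, with 2 ATF4 targets lower there and 1 lower with IL-33 in STAT3-KO. Rescaling by median of ratios gave 15 synthetases higher in WT and 1 ATF4 target lower in STAT3-KO with IL-33; it moved the median of all genes in WT by about 0.1, from -0.14 to -0.04, and gave 2128 genes higher and 2036 lower in WT, against 1724 and 2561. With the length trend removed these were 2361 and 1929. Without a filter, 8 synthetases were higher and 2 lower in STAT3-KO against WT with IL-33, 1 was lower with IL-33 in STAT3-KO, 1 was higher and 1 lower in the difference of responses, and the ATF4 targets had 1 lower with IL-33 in STAT3-KO and 0 in the difference of responses. A filter of 5 FPKM gave 4 synthetases higher and 2 ATF4 targets lower in the difference of responses, and 1 ATF4 target lower with IL-33 in STAT3-KO. A pseudocount of 0.1 gave 1 ATF4 target lower with IL-33 in STAT3-KO, 1 lower between genotypes with IL-33 and 0 in the difference of responses. No variance trend gave 1 synthetase and 0 ATF4 targets lower in the difference of responses. A fit of only the groups compared gave 2 ATF4 targets higher in STAT3-KO against WT with IL-33. Why these counts moved was not tested.

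Leaving out each library in turn, synthetases higher with IL-33 numbered 9 to 14 in STAT3-KO and 5 to 9 in WT, and lower 1 to 2 and 3 to 10. In STAT3-KO against WT with IL-33 they were 5 to 14 higher and 2 to 4 lower, and in the difference of responses 1 to 4 higher and 0 to 2 lower. ATF4 targets higher with IL-33 were 3 to 5 in STAT3-KO and 5 to 6 in WT, and lower 0 to 2 and 0 to 1. Against WT with IL-33, 0 to 3 were lower, and 0 to 1 in the difference of responses. With a replicate block 2 calls were lost, that of Ears2 between genotypes (0.55) and that of Sars in WT (0.31), both with IL-33. Over all genes, the 55 calls between control genotypes were 34 with a pseudocount of 0.1, 37 with the block and 7 with only those groups, and the 1799 of the difference of responses were 1149 without a filter. Leaving out each library, calls were 1 to 43 between control genotypes, 857 to 2048 for the difference of responses, 2141 to 4085 between genotypes with IL-33 (3876 in all 8 libraries) and 2528 to 4344 for IL-33 in WT (4285). Among the tested members Chac1 had the fewest reads, at 0 to 59 a library. Trib3 had 21 to 292 reads, and the low mitochondrial genes Vars2, Yars2 and Iars2 had 50 to 206, 40 to 148 and 135 to 499. How far depth limits these was not tested.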
